A study of Coryphaena hippurus with 21 samples.

Results

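The microRNA families miR-187 and miR-22 were followed after exposure to oil in whole larvae of the mahi-mahi, Coryphaena hippurus, taken 48 hours after fertilization. The 5 names of these families were found among the 329 miRNA names of 6 count tables by their family number, whatever the species prefix, letter or arm. The families themselves had been picked on these libraries because they stood higher in larvae from source oil than in larvae from slick oil. Every source against slick difference is therefore a description without a test. Each exposure against control, and each comparison of doses within an oil, rests on the same exposed libraries, so those p-values are not independent of the choice.

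Freshly fertilized embryos had been placed in seawater to which a HEWAF of Deepwater Horizon oil had been added, that is, a high-energy water-accommodated fraction, made by blending oil into seawater. Source oil, taken from the well, reached dilutions of 0.125% (L), 0.25% (M) and 0.5% (H), and slick oil, weathered oil skimmed from the sea surface, reached 0.5% (L), 1% (M) and 2% (H). Control larvae developed in seawater at 0%. Only the dilution of 0.5% was shared by the oils, as source H and slick L, and percentages are nominal dilutions rather than measured hydrocarbon levels. The titles of the source samples read mass, and they were taken as source oil because the exposure protocol names slick and source oil alone. Exposure was static, without renewal of the water, and ended at the same stage in all 7 groups. Each group had 3 libraries, 21 in all, made from pooled larvae. The labels do not say whether the 3 came from separate beakers, so the p-values measure only the spread between these libraries, which may be technical. Libraries are named by their count columns, and since both oils use the letters L, M and H the oil is given each time.

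MicroRNAs are short RNAs that pair with messenger RNAs through a seed near their 5′ end and lower the output of those messages. In mice, miR-22 is abundant in heart and skeletal muscle and takes part in the growth response of the heart to stress. In human monocytes, miR-187 is induced by interleukin-10 and restrains inflammatory cytokines. Neither role was measured here, and in RNA of whole larvae fewer cells of a type and less of a miRNA per cell cannot be told apart.

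The single miR-187 name was ola-miR-187, written with the medaka prefix, and it stood in all 6 tables. The 4 miR-22 names were ssa-miR-22b-5p in 6 tables, pol-miR-22-5p in 5, ssa-miR-22a-5p in 4 and dre-miR-22a-5p in 2. The prefixes mark 4 species, none of them mahi-mahi, and the letters a and b mark related miRNAs, each made from a hairpin. All 4 miR-22 names are written 5p, the mark of an arm of the hairpin. The mouse findings on miR-22 were not matched to an arm. Mature sequences were not used here, so the seeds are not compared. Of the miR-22 names, 3 (dre-miR-22a-5p, pol-miR-22-5p and ssa-miR-22a-5p) had large counts, and ssa-miR-22b-5p had small ones.

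Library totals ran from 3157670 to 8736995 counts. On the first principal component of the 99 names counted above 0 in all 21 libraries, which held 51.0% of the variance, all 6 libraries of source M and source H stood, with source L library L3, apart from the other 14. The abundant miR-22 names were not among the 99, and leaving out ola-miR-187 and ssa-miR-22b-5p left this share at 50.9%. The part of whatever set these 7 libraries apart in the levels of miR-187 and miR-22 was not tested. The markers of whole larvae were present in every library for muscle (miR-133 and miR-206), nervous system (miR-9 and miR-124) and endothelium (miR-126). The liver marker miR-122 was above 0 in 10 libraries, the red cell marker miR-144 in 17 and muscle miR-1 in 15, and miR-451 had no name in the count tables. In the remaining libraries these names were at 0 or not listed, which does not show that the miRNA was absent. All exposures share the 3 control libraries.

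The 3 abundant miR-22 names carried nearly the same count wherever they were counted together. Of the 21 libraries, 15 had 2 of the 3 names above 0 and 6 had 1, and in none were all 3 or none above 0. Only the control libraries had all 3 names listed. The source M libraries had 1 listed and the other exposed libraries 2, so all 3 could be above 0 in control alone. Where 2 names were counted, the higher exceeded the lower by 2.71 to 11.4%, with a median of 6.88%. The same library could nevertheless hold a name at exactly 0. In control library C4, dre-miR-22a-5p had 120173 counts and ssa-miR-22a-5p had 115202, while pol-miR-22-5p had 0. In control library C5 the name at 0 was dre-miR-22a-5p, beside 97332 counts of pol-miR-22-5p and 90199 of ssa-miR-22a-5p. In control library C6 it was ssa-miR-22a-5p, beside 101502 counts of dre-miR-22a-5p and 95731 of pol-miR-22-5p.

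A different one of the 3 names was thus at 0 in each control library. Among exposed libraries, ssa-miR-22a-5p was at 0 in source L library L3 and in slick L library L5, and pol-miR-22-5p was at 0 in slick M library M6. In all, 6 of the 42 listed values were 0, and the other 36 lay between 40619 and 295675 counts. Names this close in count may share reads, and how reads were divided among near-identical names is not given in the sources used here. The level of the abundant miR-22 is therefore given as the highest of the 3 names in each library. This measure was chosen after the zeros had been seen and carries no test. In source M only pol-miR-22-5p was listed.

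**Figure D1:**
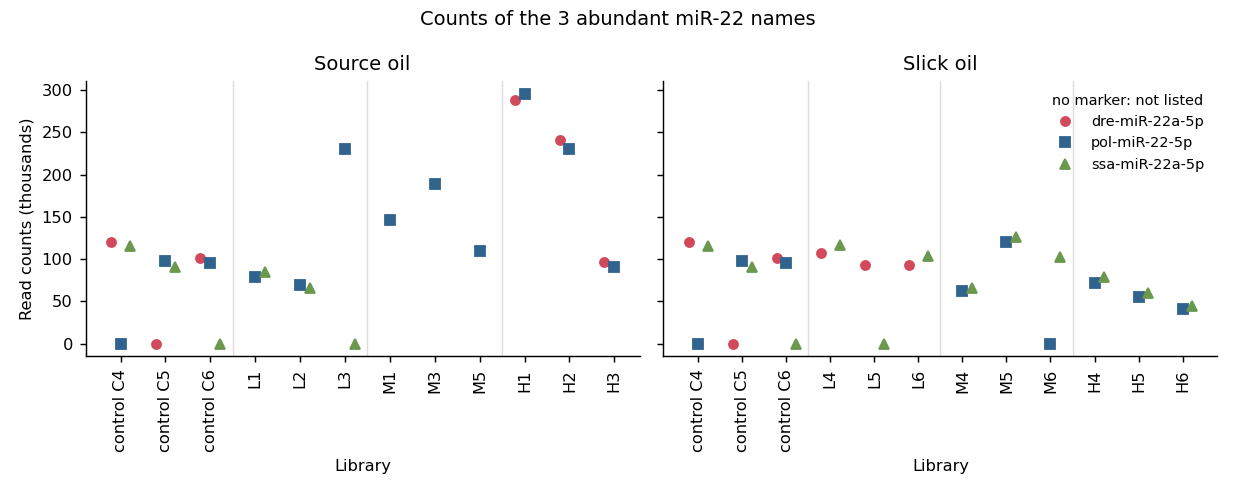
Read counts (vertical axis, in units of 1000) of the 3 abundant miR-22 names in each library (horizontal axis), with source oil on the left, slick oil on the right and the same 3 control libraries in both panels. Markers of the same library nearly coincide, apart from the 6 values at 0, and a missing marker means that the table does not list the name.

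The abundant miR-22 was higher in larvae from the middle and high source oil doses than in control larvae. Levels are given as CPM, on 1 scale for all 21 libraries. Read counts were divided by the scaled total of the 110 names that all tables share, rather than by the whole library. In source H the 3 libraries had 67563, 39195 and 51143 CPM, against 20234, 15036 and 17857 CPM in control. In source M they had 51906, 33984 and 28127 CPM. No source M or source H library overlapped the control range. How many of all names were likewise without overlap was not counted, here or in the comparisons below. A lack of overlap is therefore not read as particular to these families. In source L, libraries L1 and L2 had 17286 and 17462 CPM, inside the control range, and L3 had 49592 CPM, inside the range of source H.

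Group means of the abundant miR-22 were 52634 ± 14243 CPM in source H, 38006 ± 12389 in source M and 28114 ± 18601 in source L, against 17709 ± 2602 in control (SD, n = 3 each). The mean of source H was 2.97 times that of control and the mean of source M 2.15 times. On the log2 CPM scale the differences from control were 1.55 ± 0.26 in source H, 1.06 ± 0.29 in source M and 0.49 ± 0.52 in source L (SE). With the total counts of the 110 shared names as the scaling, the differences were 1.20 in source H and 0.86 in source M.

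In slick oil the abundant miR-22 stayed within or slightly under the control range. The 3 libraries had 15549, 13586 and 15906 CPM in slick L, 13436, 19849 and 14372 CPM in slick M, and 12547, 16548 and 14993 CPM in slick H. Each slick group overlapped control, and the log2 differences from control were -0.23 ± 0.14 in slick L, -0.17 ± 0.21 in slick M and -0.27 ± 0.17 in slick H (SE).

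Set against the 110 names that all tables share, of which it is not one, the abundant miR-22 was among the most counted. By mean CPM it ranked 4 in source H, 4 in source M and 5 in source L, against 7 in control. In slick oil it ranked 9, 7 and 7 at L, M and H.

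The level of ola-miR-187 was highest at the top source oil dose. In source H it had 1177, 942 and 1138 CPM, against 490, 352 and 409 CPM in control. In source M it had 888, 613 and 516 CPM, and no library of source M or source H overlapped control. In source L it had 452 and 552 CPM in L1 and L2 and 895 CPM in L3, the library that also held the most miR-22 of its group.

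In slick oil, ola-miR-187 did not stand above control. Its levels were 446, 352 and 344 CPM in slick L and 361, 588 and 341 CPM in slick M, both overlapping control. In slick H they were 237, 245 and 339 CPM, and the highest of these lay just under the lowest control library, at 352 CPM. With scaling taken from the slick H and control libraries alone, these groups overlapped.

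Ordered by mean, ola-miR-187 had 1086 ± 125.995 CPM in source H, 672 ± 193 in source M, 633 ± 233 in source L, 429.9 ± 138 in slick M, 417 ± 69.7 in control, 381 ± 56.8 in slick L and 274 ± 57.1 in slick H (SD, n = 3 each). Between neighbours in this order, source H did not overlap source M, and slick L did not overlap slick H on this scale. All other neighbours overlapped. The order of the abundant miR-22 began with the same source H, source M and source L, followed by control, and each neighbouring pair overlapped there. By mean CPM, ola-miR-187 ranked 42 in source H among the 110 shared names, against 54 in control and 62 in slick H.

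**Figure D2:**
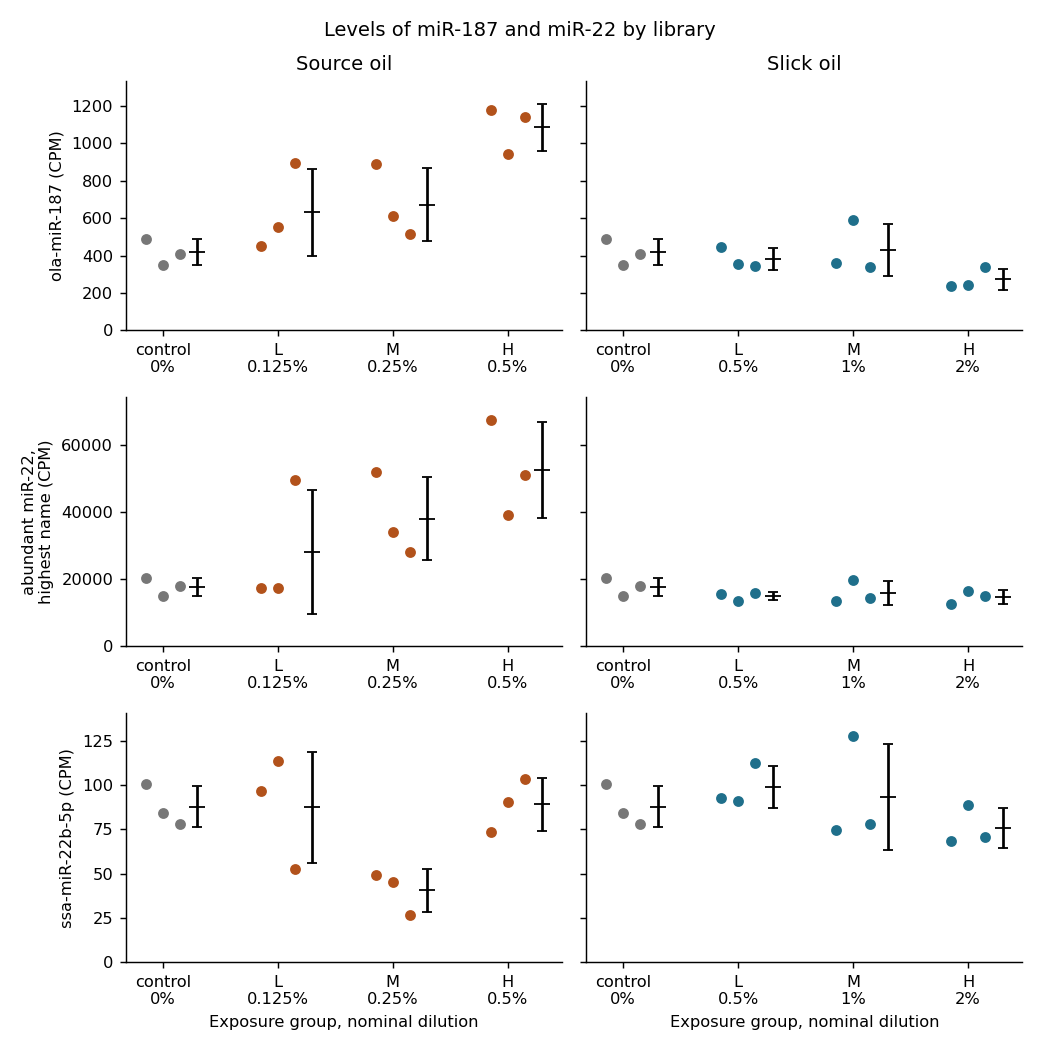
Levels in CPM (vertical axes, from 0) of ola-miR-187, of the abundant miR-22 and of ssa-miR-22b-5p by exposure group and nominal dilution (horizontal axis), with source oil on the left and slick oil on the right. Points are libraries, bars are the mean ± SD of 3 libraries, and the control libraries are the same in both columns. In the upper and middle rows all source M and source H libraries lie above the control libraries, and in the lower row the 3 source M libraries lie below them.

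With edgeR's quasi-likelihood test and adjustment over all names tested, ola-miR-187 was called higher in source H than in control. The log2 fold change was 1.41 ± 0.23 (SE), with an adjusted p of 0.0296, and the name ranked 8 of 160 by p-value. A name was called when its adjusted p lay under 0.05. In source H, 15 of 160 names were called, or 9.38% of those tested, and of the 4 miR-187 and miR-22 names tested there 1 was called. Those exposed libraries had chosen the family, so this share says nothing about the family.

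The source H call for ola-miR-187 was lost without any 1 of the 3 control libraries and without source H library H2. Over all names, the calls fell from 15 to 5, 2 and 3 without C4, C5 and C6, and to 0 without H2. The edgeR adjusted p was 0.0706 when C4 was left out, 0.0700 for C5, 0.126 for C6 and 0.0758 for source H library H2, while without H1 or H3 the call held, at 0.0455 and 0.0266. The fold change lay between 1.29 and 1.42 in these 6 fits. Scaled by total counts it was 1.01, with an edgeR adjusted p of 0.0230, and over all alternatives the adjusted p ran from 3.06e-11 with DESeq2 to 0.126. In the authors' deposited table for source H, ola-miR-187 had a log2 fold change of 1.26 and an adjusted p of 1.5e-10. Of the 111 names listed in that table, 58 had an adjusted p under 0.05.

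At the lower source doses ola-miR-187 did not pass the edgeR test. In source M the log2 fold change was 0.70 ± 0.24, with an adjusted p of 0.0880, although the groups did not overlap and 36 of 150 names, or 24%, were called. The authors' deposited table gave 0.64 with an adjusted p of 0.0817. In source L it was 0.63 ± 0.35, with an edgeR adjusted p of 0.451, and 0.29 without L3, with an adjusted p of 0.593. In source L edgeR called 0 of 152 names, or 0%, with 24 names at an unadjusted p under 0.05 and 26 called by DESeq2.

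In slick oil the fitted changes of ola-miR-187 were small or negative. They were -0.07 ± 0.17 in slick L, with an edgeR adjusted p of 0.905, and 0.03 ± 0.29 in slick M, with an adjusted p of 0.988. In slick H the log2 fold change was -0.50 ± 0.22, with an edgeR adjusted p of 0.246, and the authors' deposited table gave -0.51 with an adjusted p of 0.107. Of all names tested, 14.5% were called in slick L, 1.26% in slick M and 10.1% in slick H, and none of the miR-187 and miR-22 names was among them (4 tested in each).

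**Figure D3:**
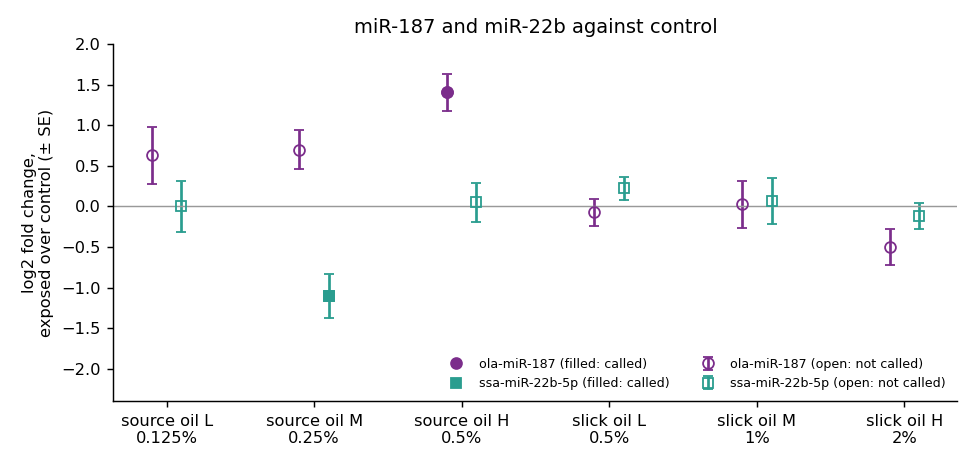
The edgeR log2 fold change of exposed over control larvae (vertical axis, ± SE) of ola-miR-187 and ssa-miR-22b-5p in each exposure (horizontal axis, with the nominal dilution), where filled markers are called and open markers are not. The filled markers are ola-miR-187 in source H, at 1.41, and ssa-miR-22b-5p in source M, at -1.11.

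The low-count member, ssa-miR-22b-5p, did not follow the abundant miR-22. Its counts ran from 104 to 815 in all 21 libraries, with no value at 0. In source M it had 49.5, 45.3 and 26.8 CPM, against 101, 84.5 and 78.3 CPM in control, and every source M library lay below every control library. In source H it had 73.6, 90.3 and 104 CPM, which overlapped control. In source L it had 96.6 and 113 CPM in L1 and L2 and 52.6 CPM in L3.

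In slick oil, ssa-miR-22b-5p overlapped control at each dose. It had 92.8, 91.1 and 113 CPM in slick L, 74.5, 128 and 78.2 CPM in slick M, and 68.3, 88.7 and 70.8 CPM in slick H. Ordered by mean, the levels were 98.8 ± 11.9 CPM in slick L, 93.5 ± 29.9 in slick M, 89.1 ± 15 in source H, 87.9 ± 11.7 in control, 87.6 ± 31.4 in source L, 75.9 ± 11.2 in slick H and 40.5 ± 12.1 in source M (SD, n = 3 each). In this order, source M alone did not overlap its neighbour.

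The edgeR test called ssa-miR-22b-5p lower in source M, with a log2 fold change of -1.11 ± 0.27 and an adjusted p of 0.0445. It was the 1 of 3 tested miR-187 and miR-22 names called there, where 24% of all names tested were called. The call was lost without any 1 of the control libraries, with edgeR adjusted p-values of 0.145 for C4 left out, 0.150 for C5 and 0.126 for C6. The call was also lost without M1, at 0.0667, without M3, at 0.102, and with no filter on low counts, at 0.0783. Over all alternatives the adjusted p ran from 0.000923 to 0.150, and the fold change was negative in each. The authors' deposited table gave -1.13 with an adjusted p of 0.000577, and 58 of the 114 names listed there had an adjusted p under 0.05.

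In the other exposures ssa-miR-22b-5p was not called by edgeR. The log2 fold change was 0.05 ± 0.24 in source H, with an adjusted p of 0.955, and its sign changed with the scaling, to -0.36 with total counts. In source L it was 0.00 ± 0.31, with an adjusted p of 1.00. It was 0.22 ± 0.14 in slick L, 0.07 ± 0.28 in slick M and -0.12 ± 0.16 in slick H, with edgeR adjusted p-values of 0.400, 0.988 and 0.860.

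Name by name, the abundant miR-22 could hardly be tested, since nearly every fit held a 0 in a control or an exposed library. In the 12 fits of these names that held a 0, the standard error of the log2 fold change was 2.60 to 3.71, against 0.14 to 0.51 in the 17 fits of these families without one, and edgeR called none of the 12. Without control library C4, where it is at 0, pol-miR-22-5p had a log2 fold change of 1.58 in source H and 1.26 in source M, with edgeR adjusted p-values of 0.0811 and 0.0839. Without control library C5, dre-miR-22a-5p had 1.46 in source H, with an adjusted p of 0.0713. These fits set 3 exposed against 2 control libraries. In these 3 contrasts they were the lowest adjusted p-values among the alternatives, which reached 0.847.

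In slick L, dre-miR-22a-5p had a log2 fold change of -0.35 without C5, with an edgeR adjusted p of 0.166. The authors' deposited tables, which keep C4 and C5, gave pol-miR-22-5p 0.99 in source H and 0.81 in source M, with adjusted p-values of 0.547 and 0.621, and dre-miR-22a-5p 0.86 in source H, with an adjusted p of 0.627. With C4 and C5 kept, edgeR gave 2.30, 1.84 and 2.06 in the same order. For pol-miR-22-5p in source H the deposited means were 230111 exposed and 50767 control. The deposited 0.99 is not the log2 ratio of these means, so it is not on the scale of the edgeR values.

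Doses were also compared within each oil, on libraries that took part in the choice of these families. Between source H and source L, ola-miR-187 had a log2 fold change of 0.66 ± 0.33 (source H over source L), with an edgeR adjusted p of 0.574, and the groups did not overlap. For pol-miR-22-5p, which had no 0 in these 6 libraries, the value was 0.76 ± 0.51, with an adjusted p of 0.607. For ssa-miR-22b-5p it was -0.09 ± 0.39, with an adjusted p of 0.990. No name was called here by edgeR among 135 tested, or 0%, with 8 at an unadjusted p under 0.05 and 2 called by DESeq2. With all 7 groups in 1 edgeR fit, 7 names were called.

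Single libraries bore on this dose contrast in both directions. Without source L library L3, ola-miR-187 had 0.89, with an edgeR adjusted p of 0.104, and pol-miR-22-5p had 1.37, with an adjusted p of 0.0997. In the same fit ssa-miR-22b-5p had -0.46, with an adjusted p of 0.383. Leaving out other libraries lowered the values. For pol-miR-22-5p the log2 fold change was 0.47 without source H library H1, 0.48 without source L library L1 and 0.50 without L2, with edgeR adjusted p-values of 0.954, 0.876 and 0.978. For ola-miR-187 it was 0.45 without L1, with an adjusted p of 0.859.

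In slick oil, H against L gave -0.46 ± 0.24 for ola-miR-187, with an edgeR adjusted p of 0.628, and -0.37 ± 0.16 for ssa-miR-22b-5p, with an adjusted p of 0.595. On the CPM scale of all 21 libraries slick H lay below slick L without overlap for both names. With scaling taken from the libraries of this contrast alone, the groups overlapped for ola-miR-187 but not for ssa-miR-22b-5p. The abundant miR-22 averaged 14696 ± 2017 CPM in slick H and 15014 ± 1249 CPM in slick L (SD, n = 3 each), and the groups overlapped. In this contrast edgeR called 0% of the names tested, with 13 at an unadjusted p under 0.05 and 6 called by DESeq2.

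The difference between the oils, for which the families were picked, was largest between the highest doses. At the shared dilution of 0.5%, ola-miR-187 averaged 1086 CPM in source oil and 381 CPM in slick oil, a ratio of 2.85. Between H and H the ratio was 3.97 and between M and M it was 1.56, with overlap in the M groups. The abundant miR-22 averaged 52634 CPM in source oil and 15014 CPM in slick oil at 0.5%, a ratio of 3.51. Its ratio was 3.58 between H and H and 2.39 between M and M, and neither pair overlapped.

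Between L and L the ratio of the abundant miR-22 was 1.87, without overlap, and much of it rested on library L3. Without L3 the log2 difference was 0.21, against 0.72 with it. For ola-miR-187 the log2 difference between L and L was 0.40 without L3, against 0.68 with it, and the groups did not overlap. The oils differed the other way for ssa-miR-22b-5p at M, with 40.5 CPM in source oil and 93.5 CPM in slick oil and no overlap. At 0.5% it had 89.1 CPM in source oil and 98.8 CPM in slick oil, and the groups overlapped.

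Within a library, the balance of the miR-22 names differed more between groups than the balance of miR-187 to miR-22. The abundant miR-22 and miR-187 were picked for the same difference between the oils, and ssa-miR-22b-5p was included by its family number. A steadier ratio of miR-187 to miR-22 therefore follows in part from the choice. So does a lower ratio of ssa-miR-22b-5p in source oil, since the abundant miR-22 is its divisor. The level of ssa-miR-22b-5p itself averaged 89.1 CPM in source H and 40.5 CPM in source M, against 87.9 CPM in control. For each 1000 counts of the abundant miR-22, ssa-miR-22b-5p had 1.81 ± 0.64 counts in source H and 1.08 ± 0.22 in source M, against 5.00 ± 0.62 in control (SD, n = 3 each). In source L the libraries split, with 5.59 and 6.50 in L1 and L2 and 1.06 in L3. In slick oil the ratio was 6.58 ± 0.56 at L, 5.81 ± 0.55 at M and 5.18 ± 0.39 at H. No source M or source H library overlapped a control or slick library.

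For ola-miR-187 the same ratio was 21.2 ± 3.42 in source H, 17.8 ± 0.64 in source M and 25.3 ± 6.82 in source L, against 23.5 ± 0.67 in control. In slick oil it was 25.4 ± 3.56 at L, 26.7 ± 2.97 at M and 18.8 ± 3.91 at H. The source M and the slick H libraries lay below control without overlap, and the other exposed groups overlapped it. Ratios within a library do not depend on its scaling, and they were added after the levels had been seen, so they carry no test.

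**Figure D4:**
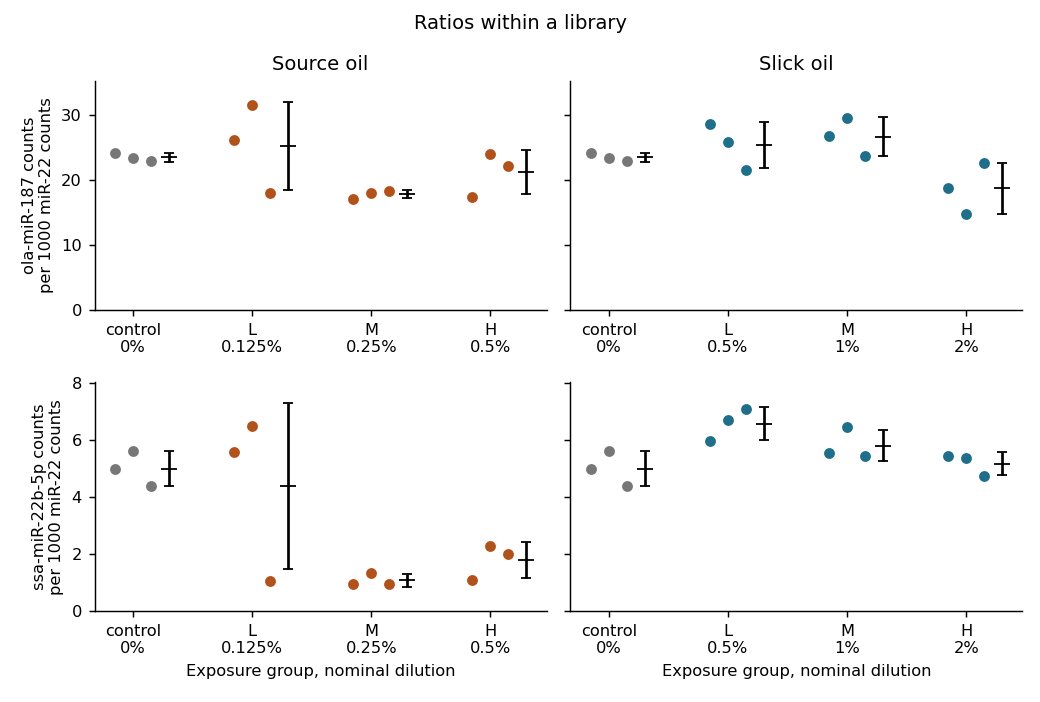
Counts of ola-miR-187 (upper row) and of ssa-miR-22b-5p (lower row) for each 1000 counts of the abundant miR-22 in the same library (vertical axes, from 0), by exposure group and nominal dilution (horizontal axis). Points are libraries and bars are the mean ± SD of 3 libraries, with the same control libraries in both columns. The lower ratio is at or under 2.30 in the source M and source H libraries and in 1 source L library, and at least 4.38 in the others. The abundant miR-22, the divisor of both ratios, was picked for standing higher in source oil.

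Across the 21 libraries, the name nearest in pattern to the abundant miR-22 was ola-miR-187. The root mean square difference between their log2 levels, each centred on its own mean, was 0.29, against a median of 0.89 over 99 names. Over the 7 group means, mse-let-7a was nearest at 0.19 and ola-miR-187 next at 0.21. Both families were picked for the same difference between the oils. Over the libraries, next came ssc-let-7i at 0.35 and aca-miR-727-5p at 0.38. For ola-miR-187 the nearest single names were aca-miR-727-5p at 0.28, ssc-let-7i at 0.33 and ola-miR-731 at 0.41, against a median of 0.82 over 98 names. The abundant miR-22, at 0.29 from ola-miR-187, was not a candidate there, because it is a measure over 3 names.

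The nearest names to ssa-miR-22b-5p were ssa-miR-18a-5p at 0.38, ipu-miR-375 at 0.38 and mdo-miR-10b-5p at 0.40, against a median of 0.80. Its own centred levels had a root mean square of 0.51, so these names were only somewhat nearer than a name that did not vary. For the 3 abundant names taken singly, the zeros set the distances, and the nearest names stood at 4.52 for dre-miR-22a-5p (ola-miR-184-5p, 9 libraries), 4.69 for pol-miR-22-5p (aca-miR-34b-5p, 18 libraries) and 5.72 for ssa-miR-22a-5p (ola-let-7g, 15 libraries).

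Other miRNAs of the tissues in which these families are known from mammals were counted beside them. Of the muscle and heart names (miR-1, miR-133, miR-206, miR-208 and miR-499), 0 of 5 were called in either direction in source H, where 9.38% of all names were called, with a median log2 fold change of 0.13 against 0.17 over all names. In source M, 1 of 4 was called, ggo-miR-499a, at -0.95 with an edgeR adjusted p of 0.0228, beside 24% of all names. The list's median there was 0.74 against 0.32 over all names. It fell between rno-miR-133b-5p at 0.66 (SE 0.44) and dre-miR-133a-2-5p at 0.82 (SE 3.45). In mammals miR-499 lies within a myosin heavy chain gene. It was also the 1 called of 6 in slick L, at -1.33 with an edgeR adjusted p of 0.00554, and the 1 of 6 in slick H, at -1.51 with an adjusted p of 0.0427. Over all names, 14.5% were called in slick L and 10.1% in slick H. In source L none of 6 and in slick M none of 5 were called.

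Of the immune cell names (miR-142, miR-146, miR-150, miR-155 and miR-223), 1 of 5 was called in source M, where 24% of all names were called, and none in the other exposures. This was tgu-miR-155-5p, from a family known for its part in lymphocyte and macrophage activation in mice, at -1.58 with an edgeR adjusted p of 0.0125. The list's median log2 fold change, over 4 or 5 names, was -0.17 in source L, 0.56 in source M and 0.69 in source H, against -0.01, 0.32 and 0.17 over all names. It was -0.84 in slick L, -0.23 in slick M and -0.78 in slick H, against 0.07, 0.05 and 0.06 over all names. The source H and source M medians are each the value of 1 name, ipu-miR-146a. Its SE was 3.39 in source H and 3.52 in source M. In source H, tgu-miR-142-5p had the same fit as ola-miR-142. These names also shared a fit in source L, where that value, -0.17 (SE 0.70), is the median. Within an oil, H against L, edgeR called no name of either list.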

How the data were processed

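Small RNA libraries had been made from pooled whole larvae with a multiplexed small RNA kit, per the labels' protocols. The authors deposited 1 table of raw read counts per exposure, with 3 exposed and 3 control columns, and they hold names of mature miRNAs, per the file headers. No aligner, counting tool or genome is named in the sources used here. Control counts of a name were the same in every table that lists it. Of 3540 control values over all tables, 0 differed from the first one listed. This number includes values that could not differ, being first or listed once. Another table was used to fill 6 blank control values. A name on more than 1 line (17 extra lines, 0 of them of these families) was reduced to its highest count. A result table that the authors deposited for each exposure gives a normalized signal (scaled counts, averaged by group), the log2 fold change and 2 kinds of p-value, raw and adjusted. DESeq2 is named for it in the submitters' processing notes. The numbers in the column names differ from those in the titles, and each column was assigned to its group alone.

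Tests used edgeR 4.0.16 in R 4.3.3 (TMM, filterByExpr with minimum count 10 and minimum total 15, glmQLFit, glmQLFTest), with Benjamini-Hochberg adjustment over all names of a comparison and a threshold of 0.05. Levels are CPM with TMM factors over the 110 names of every table, and log2 levels use a prior count of 2. The tests were checked on simulated data, modelled on names above 0 in every library of a comparison. That check does not cover the fits that held a 0. The families and the lists of other miRNAs were chosen with earlier results of these data known. All names of both families are named, with the names called in the lists. The 3 nearest names in pattern are given for ola-miR-187, ssa-miR-22b-5p and the abundant miR-22. For each of the 3 abundant names taken singly, only the nearest is given. Alternatives were RLE factors, total counts, DESeq2 1.42.0, no filter, only names above 0 throughout, repeated lines summed, all 7 groups in 1 fit, each library left out, and, added after seeing the data, the column number as a block. For levels they were total counts of the 110 shared names, a prior count of 0.5 and each library left out. For nearest names they were the 7 group means.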

Additional observations from a re-analysis of the deposited data

Results flagged for a closer look

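For ola-miR-187, the source H libraries all lay above the control mean and the slick H libraries all below it. Against control, the difference in mean log2 CPM was 1.39 in source H and -0.61 in slick H. The slick H difference was not called (edgeR log2 fold change -0.50 ± 0.22, adjusted p 0.246). For the abundant miR-22, taken as the highest of its 3 names, the log2 difference from control was 1.55 in source H, with all 3 libraries above the control mean. It was -0.23 ± 0.14 in slick L and -0.27 ± 0.17 in slick H (SE), with all libraries below the control mean but overlapping the control libraries. The difference between the oils was not tested, because it is the one for which these families were picked, and the 3 control libraries are shared by all of these values.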

How the results depend on the processing

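Of 150 values of the tested fold changes under alternatives other than leaving out a library, 139 kept their direction and side of the threshold, 8 changed sign, 2 became called and 1 lost its call. For ola-miR-187 in source M, DESeq2 gave 0.67 (adjusted p 0.0446) and only names above 0 throughout gave 0.71 (edgeR adjusted p 0.0497). For ssa-miR-22b-5p in source M, no filter gave -1.08 (adjusted p 0.0783). The sign changes were of values near 0: ssa-miR-22b-5p in source L (total counts -0.24, all 7 groups in 1 fit -0.030), in source H (RLE factors -0.073, total counts -0.36, DESeq2 -0.075, no filter -0.025) and in source H against source L (all 7 groups 0.049), and ola-miR-187 in slick M (replicate block -0.014). The described log2 differences were also scaled by the total counts of the 110 shared names. For ola-miR-187 they became 1.13 (source H minus slick L) and 1.59 (source H minus slick H). For the abundant miR-22 the difference became 1.41 (source H minus slick H). For ssa-miR-22b-5p they became -0.54 (source H minus slick L) and -0.18 (source H minus slick H). In edgeR fits, total counts moved the median of all names by -0.24 in source L, -0.20 in source M and -0.32 in source H. Values under total counts stand against this shift.

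Leaving out each library in turn gave, for ola-miR-187, 1.29 to 1.42 in source H, -0.19 to 0.0097 in slick L and -0.28 to 0.18 in slick M. For ssa-miR-22b-5p it gave -1.25 to -0.87 in source M, -0.25 to 0.28 in source L, -0.11 to 0.18 in source H, -0.24 to 0.20 in slick M and -0.46 to 0.073 in source H against source L, and for dre-miR-22a-5p in slick L -0.35 to 0.58. The calls lost in these fits are given in the report, and each was fitted on fewer libraries.

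The count of names called over all names moved more. In source M it was 36, and 7 with total counts, 66 with DESeq2, 61 with only names above 0 throughout and 14, 20 and 11 without C4, C5 and C6. In source H it was 15, and 29 with RLE factors, 30 with total counts, 62 with DESeq2, 55 with names above 0, 47 with all groups in 1 fit, 5, 2 and 3 without C4, C5 and C6, and 24, 0 and 36 without H1, H2 and H3. In slick L it was 23, and 48 with DESeq2, 14 with no filter, 44 with names above 0, 6 with all groups, 11, 14 and 9 without C4, C5 and C6, and 10 and 9 without L5 and L6. In slick M it was 2, and 16, 5 and 0 with DESeq2, names above 0 and all groups, and 8, 0 and 4 without M4, M5 and M6. In slick H it was 16, and 38 with DESeq2, 31 with names above 0, 8, 1 and 1 without C4, C5 and C6, and 8 without H6. In source L it was 0, and 26 with DESeq2, 4 with all groups and 2 without C5 or L1. In source H against source L it was 0, and 7 with all groups in 1 fit, 2 with DESeq2 and 3 without L1. In slick H against slick L it was 0, and 6 with DESeq2 and 3 without slick H library H4.

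Column numbers did not pair the libraries: over 15 pairs the correlation of same-numbered deviations ran from -0.51 to 0.41, and at most 2 of 6 libraries of a comparison correlated best with their own number. With the column number as a replicate block, edgeR called 2, 0 and 0 names in slick L, M and H, against 23, 2 and 16 without it. Source oil columns share no numbers with control columns, apart from 1 in source M, so no block could be fitted there. The counts of ssa-miR-22b-5p were 104 to 251 in source M, against 2000 to 3393 for ola-miR-187. The SE of the log2 fold change against control was 0.27 and 0.24 in the same order. How far the low counts limit precision was not tested.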
